A study of Homo sapiens with 4 samples.

Results

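The zinc finger genes with a ZNF number in their symbol were examined for cassette exon use in MDA-LM2, a derivative of the human breast cancer line MDA-MB-231 obtained by selection for metastasis to the lung. Cells had received an RNA called the SSE mimetic (2 samples) or a scrambled oligo (2 samples) by lipofection, and no other treatment separates the groups in the labels. RNA sequencing reads had been turned by the authors into 1 skipped-exon summary for each group and 1 comparison between them with MISO, a program that estimates how often an exon is kept. The samples of a group share 1 pooled read set in these tables, so no spread between replicates can be given, and every test below compares the pooled reads of 2 sets of libraries, not the conditions. The tables hold no gene expression levels, so the cells could not be checked against marker genes.

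A gene belonged to the set when it was protein-coding in GENCODE release 29, had a symbol of ZNF followed by a digit, and had at least 1 skipped exon with 10 or more isoform-specific reads in each group. Isoform-specific reads are those that match the inclusion form alone (inclusion reads) or cross the skipping junction (skipping reads). Of 514 such protein-coding genes, 89 met the rule, among them the read-through genes ZNF511-PRAP1 and ZNF559-ZNF177. They hold 466 of the 45977 events present in both summaries, 439 matched by the skipped exon and 27 by the flanking exons alone. These events cover 363 of 39120 distinct skipped exons. Of the 363, 130 had 10 or more isoform-specific reads in each group and are called tested exons here, out of 8228 tested exons in the whole data set. The 130 lie at 112 non-overlapping places, since some are alternative forms of the same exon. The other 233 fell short of the read minimum, 100 of them in the SSE mimetic group alone and 133 in both groups.

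Most proteins of this class bind DNA through tandem C2H2 fingers, short folds in which a pair of cysteines and a pair of histidines hold a zinc ion. Many also carry a KRAB domain near the start of the protein, which recruits the corepressor TRIM28 and, through it, the histone methyltransferase SETDB1, and they are best known for silencing transposable elements. The KRAB A box usually has an exon of its own, and the fingers usually share the long last exon, so that skipping can separate the repression domain from the DNA-binding part. A KRAB A box pattern was found in the annotated translations of 54 of the 89 genes, and C2H2 fingers without that pattern in 32. The pattern is a fixed run of residues and misses divergent boxes, so the group without it can hold KRAB genes. ZNF185, ZNF365 and ZNF839 had no C2H2 motif in spite of their symbols. Genes with fingers had a median of 10 motifs, and ZNF142 had the most, with 35. Chromosome 19, where KRAB genes lie in clusters, held 41 of the 89 genes (46.1%), against 249 of all 514 (48.4%).

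Inclusion is given as percent spliced in (Ψ), the authors' posterior mean between 0 and 1, with its 95% credible interval in parentheses, and a difference is Ψ with the SSE mimetic minus Ψ with the scrambled oligo. An exon was called when Ψ differed by at least 0.1 and the authors' Bayes factor, how much better unequal than equal Ψ accounts for the reads, was at least 10. By this rule 4 of the 130 ZNF exons were called (3.08%), against 3.99% of all tested exons. The called exons of ZNF782, ZNF131 and ZNF195 were higher with the SSE mimetic (2.31%, against 3.1% of all tested exons), and that of ZNF185 was lower (0.769%, against 0.887%). These shares are near those of the data set as a whole. Credible intervals of the groups did not overlap for the same 4 exons (3.08%), against 5.87% of all tested exons.

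**Figure D1:**
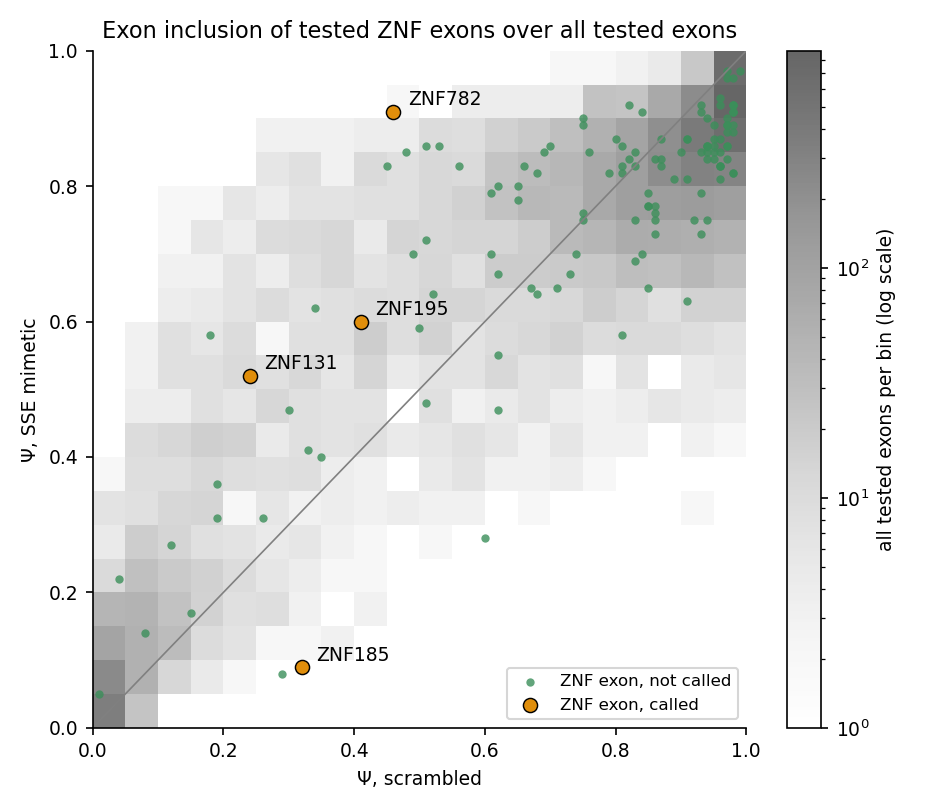
Ψ of each tested ZNF exon with the SSE mimetic (vertical axis) against Ψ with the scrambled oligo (horizontal axis), as points over the 8228 tested exons of the data set in grey bins. The 4 called exons are in orange, with ZNF782, ZNF131 and ZNF195 above the diagonal and ZNF185 below it.

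ZNF185 encodes an actin-associated protein with a LIM domain, a protein-binding fold that also holds zinc, and is no C2H2 DNA-binding factor. Its 96-nt exon at chrX:152936418-152936513 on the plus strand of hg38 is wholly coding, a multiple of 3 in length, and lies between introns of 3446 nt upstream and 1560 nt downstream. The exon is printed first because it carries the only lower call. The 84-nt exon at chrX:152920328-152920411 and the 90-nt exon at chrX:152922720-152922809 follow because their differences were larger in size, though neither was called, a choice made after their values were seen. The sequences come from GENCODE release 29 transcripts, and capitals mark the first and last 3 bases of each exon, next to the splice sites.
ZNF185 96 nt: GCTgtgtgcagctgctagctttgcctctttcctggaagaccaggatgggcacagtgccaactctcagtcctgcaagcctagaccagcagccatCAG
ZNF185 84 nt: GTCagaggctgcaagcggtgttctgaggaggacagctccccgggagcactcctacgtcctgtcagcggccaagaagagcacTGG
ZNF185 90 nt: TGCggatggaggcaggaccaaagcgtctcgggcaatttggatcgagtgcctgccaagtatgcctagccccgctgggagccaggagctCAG

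The 96-nt exon of ZNF185 had a Ψ of 0.09 with the SSE mimetic (0.04 to 0.17), against 0.32 with the scrambled oligo (0.24 to 0.40), with a Bayes factor of 417.93. The SSE mimetic pool held 5 inclusion, 17 skipping and 40 shared reads (reads that match both forms), and the scrambled pool 70 inclusion, 42 skipping and 137 shared reads. By Ψ, the exon was left out more often than kept in both pools, and more so with the SSE mimetic. An included exon offers more places for a read than the skipping junction, which Ψ takes into account and a plain share of reads does not. As a share of isoform-specific reads, inclusion was 0.227 with the SSE mimetic (95% exact binomial interval 0.078 to 0.454) and 0.625 with the scrambled oligo (0.529 to 0.715). A two-sided Fisher's exact test on inclusion and skipping reads gave p = 0.0008, and 0.0658 after Benjamini-Hochberg adjustment over all 8228 tested exons, short of the 0.05 threshold. Binomial and credible intervals cover counting error only.

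ZNF185 had 7 skipped exons, of 84, 90, 87, 105, 99, 96 and 198 nt in gene order, each a multiple of 3 and wholly coding. All 7 differences were below 0, as were those of all 9 of its events, while 63.2% of all tested exons lay below 0. Exons next to each other share flanks and reads, so these values are not independent. The 105-nt and 198-nt exons had no skipping read in either pool, where fewer reads alone lower Ψ. A 2-isoform model of the deposited reads was also run with scrambled reads scaled down to the SSE mimetic number. Differences were then above 0 for the 99-nt exon (Ψ of 0.971, against 0.946 with the scrambled oligo) and the 198-nt exon (0.98, against 0.974). The 105-nt (0.863, against 0.876), 84-nt (0.644, against 0.874) and 96-nt exons (0.089, against 0.325) stayed below. The 84-nt exon had a Ψ of 0.63 in the SSE mimetic pool (0.39 to 0.86) and 0.91 in the scrambled pool (0.79 to 0.98), but each pool held a single skipping read, and its Bayes factor of 3.37 made no call. The 90-nt exon, at 0.32 (0.07 to 0.66) with the SSE mimetic, against 0.78 (0.59 to 0.92) with the scrambled oligo, was not tested, since the SSE mimetic pool held only 4 isoform-specific reads. The 87-nt exon was not tested for the same reason, at 0.47 in the SSE mimetic pool and 0.58 in the scrambled pool. The 105-nt exon had 0.83 with the SSE mimetic, against 0.96 with the scrambled oligo, and was not called. The 198-nt exon had 0.97 in the SSE mimetic pool and 0.99 in the scrambled pool, also without a call. The exon just upstream of the 96-nt one, of 99 nt, had 0.96 with the SSE mimetic, against 0.97 with the scrambled oligo. It was kept almost always in both pools, with 65 inclusion and no skipping reads in the SSE mimetic pool and 242 inclusion and 3 skipping reads in the scrambled pool. The 84-nt and 96-nt exons shared 55.1% of aligned bases, and the 90-nt and 96-nt exons 52.7%. Both lie within the range over all pairs of the exons of 84 to 105 nt, 47.5% to 57.3%.

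**Figure D2:**
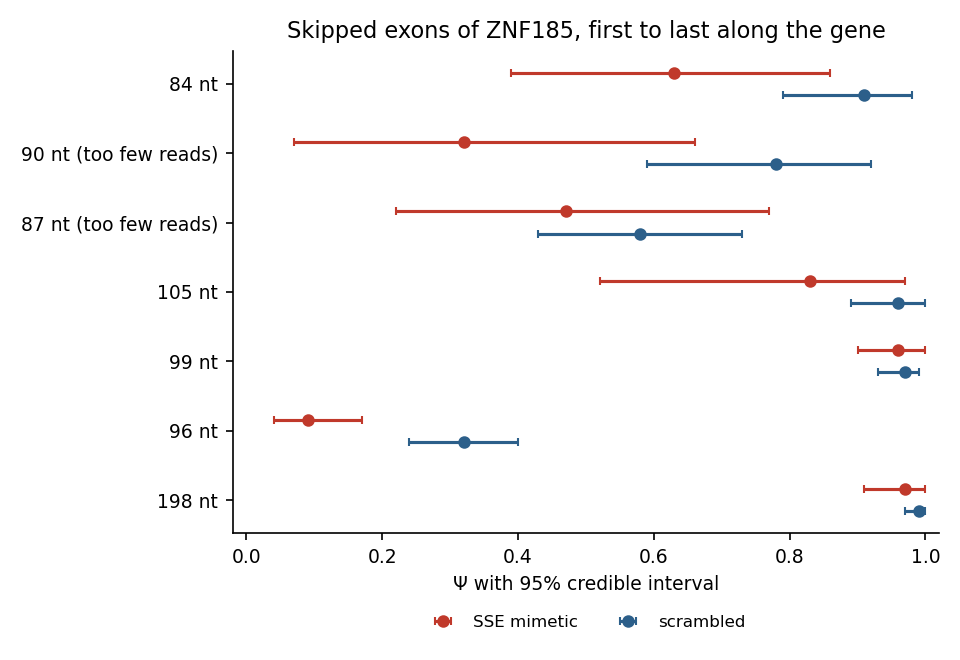
Ψ with 95% credible intervals of the 7 skipped exons of ZNF185, from the first to the last along the gene, with the SSE mimetic above the scrambled oligo in each row. Only the 96-nt exon has intervals that do not overlap, 0.04 to 0.17 for the SSE mimetic pool and 0.24 to 0.40 for the scrambled pool.

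The only ZNF exon that passed the adjusted Fisher's exact test was in ZNF131, which encodes a BTB-domain zinc finger transcription factor and had 6 C2H2 motifs. This is 0.769% of the ZNF exons, against 1.01% of all tested exons. Without adjustment, 6 of the 130 ZNF exons (4.62%) had a Fisher's exact p under 0.05, against 453 of 8228 (5.51%). The ZNF131 exon spans chr5:43136669-43137205 on the plus strand (537 nt), is not annotated in GENCODE release 29 and was matched by its flanking exons. Its Ψ was 0.52 with the SSE mimetic (0.34 to 0.76), against 0.24 with the scrambled oligo (0.19 to 0.29), with a Bayes factor of 16.38. The SSE mimetic pool held 48 inclusion, 3 skipping and 23 shared reads, and the scrambled pool 118 inclusion, 50 skipping and 75 shared reads (Fisher's exact p = 0.000291, adjusted p = 0.0368). Reads matching neither form, which can come from introns, numbered 734 in the SSE mimetic pool and 1560 in the scrambled pool, and their density over the flanking introns would place 22.1 reads with the SSE mimetic, against 47.1 reads with the scrambled oligo, on a stretch of this length. With those reads taken off, a 2-isoform model recomputed from the deposited reads gave a difference of 0.165 and no call. The annotated 145-nt coding exon of ZNF131 that follows had 0.76 in the SSE mimetic pool and 0.75 in the scrambled pool, and its 683-nt exon with 3 C2H2 motifs had 0.88 with the SSE mimetic, against 0.98 with the scrambled oligo, neither called.

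The called exon of ZNF195, a KRAB gene on chromosome 11, is a 7113-nt exon of noncoding transcripts at chr11:3361743-3368855 on the minus strand. Its Ψ was 0.60 in the SSE mimetic pool (0.49 to 0.73) and 0.41 in the scrambled pool (0.37 to 0.46), with a Bayes factor of 28.84. The SSE mimetic pool held 246 inclusion, 1 skipping and 155 shared reads, and the scrambled pool 630 inclusion, 4 skipping and 568 shared reads. Inclusion made up 0.996 of isoform-specific reads with the SSE mimetic, against 0.994 with the scrambled oligo (Fisher's exact test, adjusted p = 1), so the difference in Ψ came with the balance of inclusion and shared reads, not with skipping reads. At the read density of the flanking introns, 393 reads in the SSE mimetic pool and 914 reads in the scrambled pool would fall on a stretch of this length, more than the inclusion reads observed in either pool. With those taken off, no inclusion reads were left and the model's Ψ was about 0.003 in both pools. Its difference of 0.001 was therefore fixed in advance and says nothing on inclusion. The 7113-nt exon also holds at least 1 stretch of 50 bases that is annotated at another locus. How reads from such stretches were placed is not given in the sources used here, so Ψ of this exon is uncertain. A 147-nt form that shares one end with it, chr11:3361743-3361889, had 0.70 (0.43 to 0.92) with the SSE mimetic, against 0.74 (0.59 to 0.91) with the scrambled oligo, and was not called.

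ZNF782, a KRAB gene with 11 C2H2 motifs, had the largest difference of any tested ZNF exon. Its 162-nt exon at chr9:96852853-96853014 on the minus strand, annotated as untranslated, had a Ψ of 0.91 in the SSE mimetic pool (0.69 to 1.00) and 0.46 in the scrambled pool (0.25 to 0.68), with a Bayes factor of 103.89. Few reads lie behind it, 10 inclusion, 0 skipping and 1 shared with the SSE mimetic and 8 inclusion, 6 skipping and 4 shared with the scrambled oligo (Fisher's exact p = 0.0239, adjusted p = 0.573). A 217-nt form of the same exon, which shares these reads in part, had 0.86 (0.64 to 0.98) with the SSE mimetic, against 0.53 (0.33 to 0.75) with the scrambled oligo, and its Bayes factor of 4.73 made no call. The 2-isoform model gave the 162-nt exon a Bayes factor of 9.47, just short of a call, with a difference of 0.422. After subtraction of intron reads the model called it higher, with a difference of 0.745 and a Bayes factor of 295. The 217-nt form was then called too, at 0.748 with a Bayes factor of 322. In the scrambled pool 7.84 reads were taken off the 8 inclusion reads, and 12.9 off the 12 of the 217-nt form. In the SSE mimetic pool 3.81 were taken off 10, and 6.24 off 12. Scrambled inclusion was thus left near 0 by construction. The model takes the expected number as exact, so these calls lend the exon no support.

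**Figure D3:**
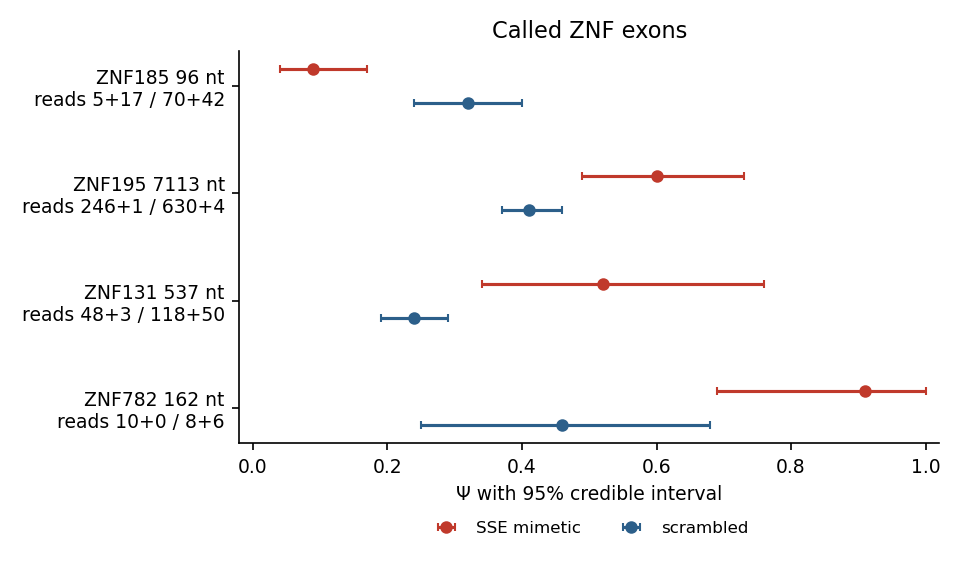
Ψ with 95% credible intervals of the 4 called ZNF exons, with the SSE mimetic above the scrambled oligo in each row. The row labels give the exon length and then inclusion plus skipping reads, with the SSE mimetic before the slash and with the scrambled oligo after it, from 10 and 14 isoform-specific reads for ZNF782 to 247 and 634 for ZNF195.

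KRAB A box exons form the most uniform group. Of the 36 skipped exons whose translation holds the pattern, 27 were 127 nt long, and of the 14 tested ones 13 were. A length of 127 nt was found in 10.8% of tested ZNF exons, against 0.523% of all tested exons, and a length of 96 nt, that of the ZNF185 exon and of exons in 6 other member genes, in 5.38% against 0.802%. The 127 nt are no multiple of 3, so skipping shifts the reading frame. The exons below show how alike they are. The first 6 have the most isoform-specific reads, and ZNF71 was added after its values were seen because it is the one with low inclusion. They are taken from GENCODE release 29 transcripts, and capitals mark the 48 bases that code the core of the A box, at bases 13 to 60 in each.
ZNF721, chr4:472575-472701, minus strand: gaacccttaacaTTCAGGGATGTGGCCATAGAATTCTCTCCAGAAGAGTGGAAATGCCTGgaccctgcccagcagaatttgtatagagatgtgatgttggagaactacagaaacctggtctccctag
ZNF274, chr19:58185712-58185838, plus strand: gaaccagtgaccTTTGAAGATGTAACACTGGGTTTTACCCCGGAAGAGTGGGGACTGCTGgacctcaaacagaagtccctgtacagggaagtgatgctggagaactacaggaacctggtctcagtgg
ZNF90, chr19:20104239-20104365, plus strand: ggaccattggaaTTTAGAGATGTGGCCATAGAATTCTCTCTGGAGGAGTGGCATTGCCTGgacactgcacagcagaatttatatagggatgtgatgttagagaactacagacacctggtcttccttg
ZNF680, chr7:64544306-64544432, minus strand: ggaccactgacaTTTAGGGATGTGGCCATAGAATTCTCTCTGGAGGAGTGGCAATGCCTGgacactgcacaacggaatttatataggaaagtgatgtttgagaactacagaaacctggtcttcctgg
ZNF765, chr19:53402065-53402191, plus strand: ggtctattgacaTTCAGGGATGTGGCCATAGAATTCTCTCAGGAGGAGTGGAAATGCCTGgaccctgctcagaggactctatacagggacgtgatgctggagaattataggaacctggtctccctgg
ZNF813, chr19:53486632-53486758, plus strand: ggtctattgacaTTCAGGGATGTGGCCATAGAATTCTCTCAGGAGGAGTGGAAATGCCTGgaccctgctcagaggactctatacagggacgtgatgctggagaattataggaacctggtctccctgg
ZNF71, chr19:56613812-56613938, plus strand: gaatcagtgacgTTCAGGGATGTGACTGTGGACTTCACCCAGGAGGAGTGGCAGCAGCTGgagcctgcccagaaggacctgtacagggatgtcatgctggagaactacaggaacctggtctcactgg

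Over the 78 pairs of tested 127-nt KRAB A box exons, identity ran from 53.5% (ZNF587 and ZNF721) to 100% (ZNF765 and ZNF813), with a median of 75.6%. The exons of ZNF765 and ZNF813 are the same sequence, so reads that lie within them cannot be told apart. Of the 14 tested exons, 10 had at least 1 stretch of 50 bases that is also annotated at another locus, and in 4 every such stretch was. The share was 91.0% in ZNF721, 82.1% in ZNF90 and 28.2% in ZNF680, and it was 0 in ZNF71, ZNF138, ZNF274 and ZNF559. How the authors' alignment placed reads from such stretches is not given in the sources used here, so Ψ of the exons with shared stretches is uncertain.

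None of the 14 tested KRAB A box exons was called, against 3.99% of all tested exons, a share at which so small a set may hold no call. Of their differences 6 were above 0 and 8 below, with a median of -0.02 and a range of -0.21 to 0.21. Ψ had a median of 0.83 in the SSE mimetic pool and 0.795 in the scrambled pool among them. They had few reads, a median of 12.5 isoform-specific reads with the SSE mimetic, against 24 with the scrambled oligo, and median credible intervals 0.40 wide in the SSE mimetic pool and 0.345 wide in the scrambled pool, so that small shifts were not detectable at this depth. ZNF274, which recruits SETDB1 to other zinc finger genes, kept its KRAB exon at 0.84 (0.61 to 0.98) with the SSE mimetic, against 0.86 (0.71 to 0.97) with the scrambled oligo. ZNF721 had 0.89 (0.69 to 0.99) in the SSE mimetic pool and 0.98 (0.92 to 1.00) in the scrambled pool. ZNF90 had 0.82 (0.56 to 0.98) with the SSE mimetic, against 0.68 (0.50 to 0.84) with the scrambled oligo, and ZNF680 had 0.79 (0.50 to 0.99) in the SSE mimetic pool and 0.93 (0.80 to 1.00) in the scrambled pool. ZNF765 had 0.91 in the SSE mimetic pool and 0.93 in the scrambled pool, and ZNF813 had 0.86 with the SSE mimetic, against 0.94 with the scrambled oligo.

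In 13 of the 14 Ψ was above 0.5 in both pools. ZNF71 was the exception, at 0.08 (0.00 to 0.26) with the SSE mimetic, from 0 inclusion and 10 skipping reads, and 0.29 (0.13 to 0.48) with the scrambled oligo, from 5 inclusion and 9 skipping reads. Its credible intervals overlapped and its Bayes factor was 1.48.

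**Figure D4:**
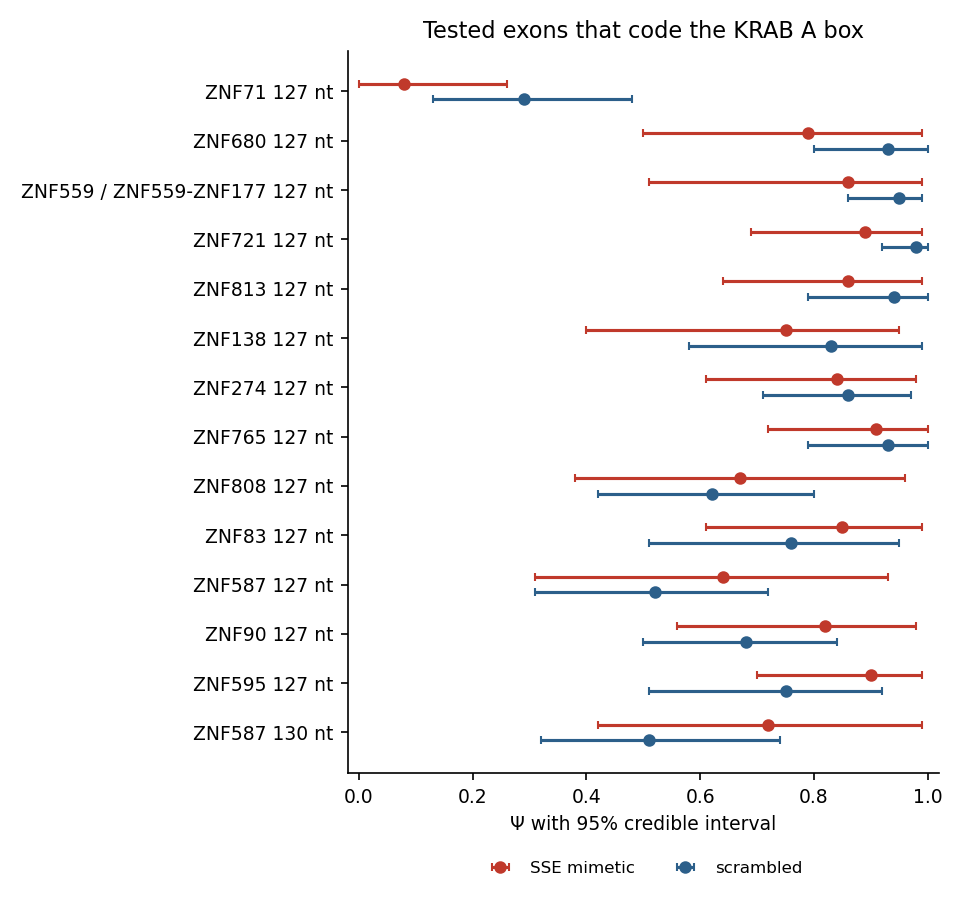
Ψ with 95% credible intervals of the 14 tested KRAB A box exons, ordered by difference, with the SSE mimetic above the scrambled oligo in each row. Intervals of the groups overlap in every row, and ZNF71, at 0.08 in the SSE mimetic pool and 0.29 in the scrambled pool, is the only one with low inclusion.

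Exons that code C2H2 motifs were tested in 15 cases and none was called, against 3.99% of all tested exons. After subtraction of intron reads in the 2-isoform model, those of ZNF589 and ZNF530 were called lower, with differences of -0.687 and -0.46, against deposited differences of -0.07 and -0.14. For ZNF530 the 83.0 reads taken off in the SSE mimetic pool exceeded its 56 isoform-specific reads, so no inclusion reads were left there. For ZNF589 the numbers were 126 of 164 in the SSE mimetic pool and 197 of 456 in the scrambled pool. Both calls hang on expected numbers that the model takes as exact. Over the 15 finger exons the median deposited difference was -0.07, with 12 below 0 and 2 above. Their Ψ was high, with a median of 0.85 with the SSE mimetic, against 0.96 with the scrambled oligo. In 12 of the 15 neither pool held a skipping read, where fewer reads alone lower Ψ. With the scrambled reads scaled down in the 2-isoform model, differences of the finger exons named below ran from -0.099 (ZNF530) to 0.033 (ZNF384). Of the 15, 6 held a stretch of 50 bases that is also annotated at another locus, so their Ψ is uncertain. The 1827-nt exon of ZNF506, with 8 motifs, had 0.96 (0.86 to 0.99) in the SSE mimetic pool and 0.98 (0.96 to 1.00) in the scrambled pool. ZNF567 (13 motifs in 1614 nt) had 0.89 with the SSE mimetic, against 0.97 with the scrambled oligo, and ZNF714 (12 motifs in 2079 nt) had 0.85 in the SSE mimetic pool and 0.96 in the scrambled pool. ZNF589 (3055 nt, 4 motifs) had 0.91 with the SSE mimetic, against 0.98 with the scrambled oligo, and ZNF608 (2455 nt, 1 motif) had 0.92 in the SSE mimetic pool and 0.93 in the scrambled pool. ZNF530, with 13 motifs in 2142 nt, had a wider gap and was not called, at 0.70 (0.45 to 0.96) with the SSE mimetic, against 0.84 (0.69 to 0.95) with the scrambled oligo, on a single skipping read in each pool. The 183-nt exon of ZNF384, a transcription factor known from leukaemia fusions, was the one finger exon here that was left out more often than not, at 0.41 (0.21 to 0.61) in the SSE mimetic pool and 0.33 (0.24 to 0.42) in the scrambled pool.

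The 61 tested exons that code neither the A box pattern nor a finger had a median difference of -0.06, with 17 above 0 and 42 below, and the ZNF185 exon was the only call among them. The 20 exons in 5′ untranslated regions had a median of -0.04 and no call, against 3.99% called of all tested exons. The 9 exons of noncoding transcripts (median 0.12, with 7 above 0), the 7 exons not in the annotation (median 0.17, with 5 above 0) and the 4 in 3′ untranslated regions (median 0.24, with 3 above 0) lay higher and held the 3 higher calls. Their inclusion with the scrambled oligo was also lower, with a median Ψ of 0.41 for noncoding, 0.66 for unannotated and 0.50 for 3′ untranslated exons, against 0.845 for all tested ZNF exons. An exon counted as 3′ untranslated when an annotated coding region ended before it in a transcript that holds it. The ZNF782 exon in this class lies upstream of that gene's 127-nt KRAB A box exon, so not after the coding part of the gene as a whole. The level of inclusion went with the direction in the whole data set too. Among tested ZNF exons whose mean Ψ was up to 0.5, 14 of 18 differences were above 0 (77.8%), and among all tested exons of that level 81.1% were. Above a mean Ψ of 0.9, none of 29 ZNF exons and 4.17% of all tested exons had a difference above 0. Of these 29, 25 had no skipping read in either pool (86.2%, against 73% of all tested exons of that level). Fewer reads alone lower Ψ in such exons. The levels were taken from the same Ψ values as the differences, so these counts are no independent support for a link between level and direction.

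By gene group, the 75 tested exons of genes with the KRAB A box pattern had a median difference of -0.04 (range -0.32 to 0.45) and 2 calls. The 47 exons of C2H2 genes without the pattern had a median of -0.04 (range -0.23 to 0.40) and 1 call. All 8 exons of the genes without a C2H2 motif were below 0 (median -0.06), 5 of them in ZNF185, and the other 3, in ZNF365 and ZNF839, had differences of -0.04, -0.04 and -0.08. Of the 8, 4 had no skipping read in either pool. Of the 28 genes with 2 or more tested exons, 11 had all differences below 0, 6 had all above, and 11 had both directions.

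Over all 130 tested ZNF exons the median difference was -0.04 (quartiles -0.09 and 0.078, range -0.32 to 0.45), with 48 above 0, 78 below and 4 at 0. Over all tested exons it was -0.03 (quartiles -0.09 and 0.03), with 33.4% above 0. Differences of at least 0.1 in either direction were found in 60 ZNF exons (46.2%), against 36.9% of all tested exons, and ZNF exons were covered by fewer reads. Their median was 15 isoform-specific reads in the SSE mimetic pool and 46 in the scrambled pool. Over all tested exons it was 19 in the SSE mimetic pool and 78 in the scrambled pool. The credible interval of a ZNF exon was a median of 0.40 wide in the SSE mimetic pool and 0.23 wide in the scrambled pool. In 95 exons (73.1%) the SSE mimetic pool held fewer than 20 isoform-specific reads, and in 71 (54.6%, against 54.8% of all tested exons) neither pool held a skipping read. In those 71 the median difference was -0.07, and in the 59 with a skipping read it was 0.05. When the scrambled reads of each exon were scaled down to the SSE mimetic number in the 2-isoform model, the median over the 130 exons was 0.00611, and of the 4 calls the ZNF185 exon alone was kept.

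**Figure D5:**
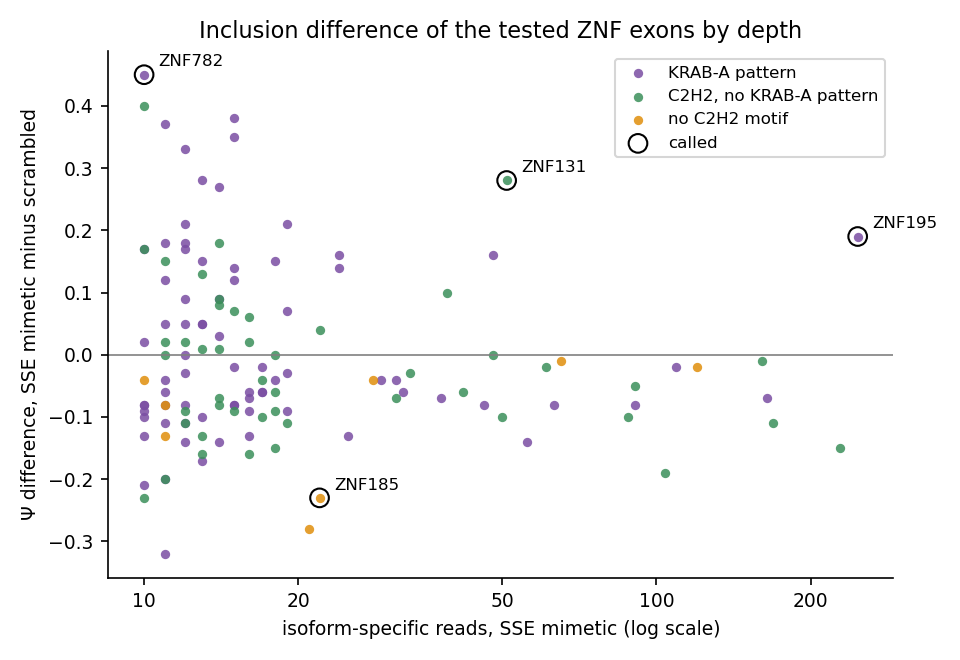
Difference in Ψ (SSE mimetic minus scrambled) of the 130 tested ZNF exons against isoform-specific reads with the SSE mimetic on a log scale, coloured by gene group, with rings around the 4 called exons. Differences spread most near the 10-read minimum, where ZNF782 lies, and the ZNF185, ZNF131 and ZNF195 calls rest on 22, 51 and 247 such reads.

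At the read minimum itself, the 13 tested exons with exactly 10 isoform-specific reads in the SSE mimetic pool had a median difference of -0.08. The 5 exons with 9 such reads there and at least 10 in the scrambled pool, which were not tested, had -0.13. Of the 233 untested exons, 4 would have passed the Bayes factor and the difference, in ZNF195, ZNF215, ZNF410 and ZNF721, on 1 to 3 isoform-specific reads with the SSE mimetic.

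Some uncalled exons came close, and they were picked for mention with their values known. A 108-nt coding exon of ZNF496 had a Ψ of 0.58 with the SSE mimetic (0.30 to 0.86), against 0.18 with the scrambled oligo (0.07 to 0.33), with a Bayes factor of 6.63, from 8 inclusion and 2 skipping reads in the SSE mimetic pool and 6 inclusion and 15 skipping reads in the scrambled pool. In ZNF655, a KRAB gene on chromosome 7, neighbouring coding exons stood in opposite directions. The 120-nt exon had 0.85 (0.54 to 1.00) with the SSE mimetic, against 0.48 (0.26 to 0.74) with the scrambled oligo, and its Bayes factor was 2.56. The 105-nt exon, the lowest difference of any tested ZNF exon, had 0.28 (0.09 to 0.51) in the SSE mimetic pool and 0.60 (0.49 to 0.70) in the scrambled pool, and its Bayes factor was 8.86. Neither passed Fisher's exact test after adjustment (adjusted p = 1 for the 120-nt exon and 0.781 for the 105-nt exon). After subtraction of reads taken as intronic in the 2-isoform model both were called. The 120-nt exon was higher at 0.498 (Bayes factor 10.8) and the 105-nt exon lower at -0.391 (Bayes factor 23.3). For both, the stretch taken as the upstream intron holds other ZNF655 exons. One is a 607-nt exon, with 48 inclusion reads in the SSE mimetic pool and 90 in the scrambled pool. The subtracted density is thus not that of introns alone, and these calls lend neither exon support. The 2-isoform model also called the ZNF496 exon higher, at 0.451 without the subtraction and 0.463 with it.

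Among the ZNF proteins known to act on RNA or on other proteins, a list of 12 genes, 5 had tested exons, 8 in all. None was called, against 3.99% of all tested exons, and the median difference was -0.075 (-0.20 to 0.17). The 93-nt exon of ZNF207, a spindle checkpoint protein that binds BUB3, was left out of most transcripts, at 0.17 (0.06 to 0.31) with the SSE mimetic, against 0.15 (0.11 to 0.21) with the scrambled oligo. As a share of isoform-specific reads its difference had the other sign, -0.15, from 4 inclusion and 12 skipping reads in the SSE mimetic pool and 34 inclusion and 51 skipping reads in the scrambled pool (Fisher's exact p = 0.399, adjusted p = 1). The 1225-nt exon of ZNF638, an RNA-binding splicing cofactor, had 0.75 (0.39 to 0.96) with the SSE mimetic, against 0.94 (0.80 to 1.00) with the scrambled oligo. The 2184-nt exon of ZNF106, an RNA-binding protein, had 0.81 (0.65 to 0.97) in the SSE mimetic pool and 0.96 (0.88 to 1.00) in the scrambled pool. Neither ZNF638 nor ZNF106 had a skipping read in either pool. With the scrambled reads scaled down in the 2-isoform model, ZNF638 had 0.819 in both pools. ZNF106 then had 0.813 with the SSE mimetic, against 0.916 with the scrambled oligo. After subtraction of intron reads ZNF106 was called lower, at -0.333. ZNF451, a SUMO ligase, had 0.65 with the SSE mimetic, against 0.85 with the scrambled oligo, and ZNF346, which binds double-stranded RNA, had 0.82 in the SSE mimetic pool and 0.81 in the scrambled pool. These exons of ZNF451 and ZNF346 had no skipping read in either pool either. The other tested exon of ZNF451 differed in the other direction. In the 2-isoform model it had 0.334 with the SSE mimetic, against 0.192 with the scrambled oligo.

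Of 18 transcription and chromatin factors outside the KRAB group, 6 had tested exons, 8 in all. They held no call, against 3.99% of all tested exons, and had a median difference of -0.065 (-0.15 to 0.10). The 133-nt exon of ZNF217, a transcription factor gene often amplified in breast cancer, had 0.97 in both pools. ZNF687 had 0.92 (0.76 to 1.00) with the SSE mimetic, against 0.82 (0.64 to 0.96) with the scrambled oligo, at an 869-nt exon of its 5′ untranslated region, and was called higher at 0.408 after subtraction of intron reads. The 58.6 reads then taken off in the scrambled pool exceeded its 52 isoform-specific reads, so no inclusion reads were left there. ZNF532, a partner of ZNF687, had 0.86 in the SSE mimetic pool and 0.97 in the scrambled pool. ZNF410, which controls the remodeller gene CHD4, had 0.92 with the SSE mimetic, against 0.98 with the scrambled oligo. ZNF827 had 0.47 (0.23 to 0.78) in the SSE mimetic pool and 0.62 (0.41 to 0.85) in the scrambled pool.

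The remaining named exons were chosen by read number or by size of difference among exons that had 20 or more isoform-specific reads per pool, and none was called. ZNF615 (204 nt) had a Ψ of 0.89 with the SSE mimetic, against 0.75 with the scrambled oligo. A 607-nt exon of ZNF655 had 0.86 in the SSE mimetic pool and 0.70 in the scrambled pool, and ZNF707 (1258 nt) had 0.85 with the SSE mimetic, against 0.69 with the scrambled oligo. ZNF428 (99 nt) was nearly always skipped, at 0.05 in the SSE mimetic pool and 0.01 in the scrambled pool, without an inclusion read in either pool. ZNF141 (344 nt) had 0.83 with the SSE mimetic, against 0.96 with the scrambled oligo. The exons of ZNF615, ZNF707 and ZNF141 had no skipping read in either pool. With the scrambled reads scaled down in the model, their differences were 0.065 (ZNF615), 0.152 (ZNF707) and -0.053 (ZNF141). Intron read density would place 36.2 reads on the ZNF707 exon in the SSE mimetic pool and 59.7 in the scrambled pool. With those taken off, the model gave it a Ψ of 0.046 with the SSE mimetic, against 0.012 with the scrambled oligo. The Ψ gap at ZNF707 is thus uncertain.

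Of all tested exons 3.99% were called, so few calls would fall in lists as short as the next ones. Zinc finger genes under other names (ZBTB, ZSCAN, ZKSCAN, ZFP, PRDM and KLF, 125 genes) had 40 tested exons in 29 genes, none of them called, with a median difference of -0.035 (-0.37 to 0.40). Genes that act with KRAB proteins, such as TRIM28, SETDB1 and the heterochromatin protein genes (32 genes), had 38 tested exons in 15 genes, also without a call, with a median of -0.01 (-0.25 to 0.25). No difference between these lists and the ZNF exons was tested.

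By summed reads, the depth gap between the pools was smaller at ZNF exons than over all exons, a description with no test. Isoform-specific reads of the 130 tested exons numbered 3780 in the SSE mimetic pool and 13071 in the scrambled pool, a ratio of scrambled to SSE mimetic of 3.46, against 4.87 over all tested exons. It was 2.66 for exons of genes with the KRAB A box pattern, 4.28 for C2H2 genes without it and 2.19 for the KRAB A box exons. For reads that match neither form the ratio was 1.79 at tested ZNF exons and 1.89 over all. The read minimum favours exons with more SSE mimetic reads, so the ratio was also taken without it. It was then 3.60 for the member exons and 3.56 for exons of all 514 genes, against 4.79 over all exons. These sums weigh deep exons most. The median ratio per exon without the minimum was 3.05 for member exons and 3.0 over all exons, so that measure did not show it. Fewer transcripts and a change in how they were sampled cannot be told apart in pooled bulk reads.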

How the data were processed

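Per the labels' protocols, total RNA of 4 MDA-LM2 samples was made into ScriptSeq v2 libraries, and STAR 2.7 and the build hg38 are named in the submitters' processing notes. Per the file headers, the deposited Ψ and its bounds are fractions from MISO, the deposited Bayes factor is a ratio capped at 1e12, and the deposited difference is a score, Ψ of the SSE mimetic minus Ψ of the scrambled summary. The authors' tables give numbers of reads per class as text. No source used here gives the MISO version or how the samples were pooled.

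Events were matched to GENCODE release 29 by coordinates and strand, and each skipped exon was represented by its event with the most isoform-specific reads. Fisher's exact tests and Benjamini-Hochberg adjustment ran over all 8228 tested exons (Python 3.11.15, scipy 1.17.1), and the calculation was tested on simulated data. The 2-isoform model used a read length of 76 nt, which was among the lengths that came closest to the deposited Ψ. KRAB and C2H2 motifs were searched in translations of GENCODE transcripts in place of a protein table, and the KRAB pattern was widened after values had been seen, to take the A box exons of ZNF808 and ZNF655. The members and lists were chosen with earlier results of these data known.

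Named exons were every called one, the 8 highest and the 8 lowest differences (1 per gene, with 20 or more isoform-specific reads in both groups; the 8 highest reach down to 0 at ZNF217), the 8 with the most reads, the best-covered exon of each gene of 2 ZNF lists, and 6 KRAB A box exons by reads. Others are said to be chosen after their values were seen, or are given as further exons of a named gene or as calls of an alternative. No label says whether samples were separate cultures.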

Additional observations from a re-analysis of the deposited data

How the results depend on the processing

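Of 13 alternatives, 9 gave 2 or 3 higher calls, and 11 gave 1 lower call. Higher calls numbered 1 with a Bayes factor of at least 100, 1 with Fisher's exact test in place of the Bayes factor, 8 after subtraction of intron reads in the 2-isoform model and 0 with the scrambled reads scaled down. Lower calls numbered 0 with Fisher's exact test and 6 after intron subtraction. The median difference was 0 for the share of inclusion reads, 0.05 over exons with a skipping read and 0.00611 with scaled reads, and it lay between -0.05 and -0.0297 otherwise. Intron subtraction added calls at ZNF106, ZNF530, ZNF589 and ZNF687 among named exons, with differences of -0.333, -0.46, -0.687 and 0.408. It also added calls at both ZNF655 exons and the 217-nt form of ZNF782. Further higher calls were added at ZNF550 (0.483), ZNF569 (0.571), ZNF692 (0.686) and ZNF496 (0.463). A lower call was added at an exon of ZNF608 not described above (-0.746). The cause of the added calls was not tested. At ZNF530, ZNF687, ZNF550, ZNF692, this ZNF608 exon and the 217-nt form of ZNF782 the reads taken off exceeded the inclusion reads of a pool, so none were left there. In ZNF655 the stretches taken as introns hold other exons. In the plain 2-isoform model ZNF496 joined the higher calls and ZNF782 left them. The lower ZNF185 exon was kept by all alternatives except Fisher's exact test (differences of -0.398 to -0.223). No paired analysis was possible because each group was deposited as 1 pooled read set, and no sample could be left out. Depth limits most ZNF exons, 73.1% of which had fewer than 20 isoform-specific reads with the SSE mimetic.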
